A study of Mus musculus with 5 samples.

Results

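The enzymes of lower glycolysis and the exporter of its end product were followed as 10 genes in MutuDC cells during treatment with Fanchinoline (spelled as in the labels). MutuDC is a mouse line of type 1 conventional dendritic cells (cDC1). The genes were chosen by name, as the rows of the count table whose symbol is Aldoa, Aldoc, Tpi1, Gapdh, Pgk1, Pgam1, Eno1, Pkm, Ldha or Slc16a3, and they are 10 of 53700 genes. They and the gene lists below were chosen with earlier results of these data known. Counts of them set beside the share of all genes therefore describe the set and are no test of it. Aldoa had a second row with 17 to 53 counts per library, and the row with the most counts was used. Cells labelled as vehicle control stand for 0 h, and the other groups received Fanchinoline for 2, 6, 12 or 24 h, with 1 library each. The design text names untreated cells as the control and speaks of triplicates, so whether the control cells received the solvent, and whether each library pools replicates, is unsettled. The sources used here give no dose, vehicle was sampled at 0 h only, and time in culture and time with the compound cannot be told apart.

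Glycolysis splits a sugar phosphate into triose phosphates, oxidises them, and passes them through phosphoglycerates and phosphoenolpyruvate to pyruvate, yielding ATP on the way. Lactate dehydrogenase reduces pyruvate to lactate and so returns the NAD+ that the oxidation step needs, and monocarboxylate transporters carry lactate and a proton out of the cell. Dendritic cells are known for raising glycolytic flux when activated, and many of these genes are textbook targets of the hypoxia-inducible factor HIF-1, which binds DNA at the core letters ACGTG or GCGTG.

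All 10 genes had a higher level in each of the 4 treated libraries than in vehicle, except that the sign for Gapdh at 2 h turned under 2 of the alternative settings. Slc16a3, which encodes the lactate exporter MCT4, had the largest ratios. In CPM, the counts scaled to library size, Slc16a3 stood at 96.2 in vehicle and at 149, 477, 589.8 and 485 after 2, 6, 12 and 24 h. The 6, 12 and 24 h libraries lay far above both earlier ones. The ratio to vehicle was 4.95-fold at 6 h (95% exact interval 4.77 to 5.15), 6.13-fold (5.91 to 6.37) 12 h into treatment and 5.05-fold (4.86 to 5.24) at its end. These intervals cover counting error only, and no replicate shows how much a repeat of any time point would vary. The summed share of all counts taken by the 10 genes was 1.44% for vehicle, then 1.57%, 2.16%, 2.98% and 2.94% in order of time.

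**Figure D1:**
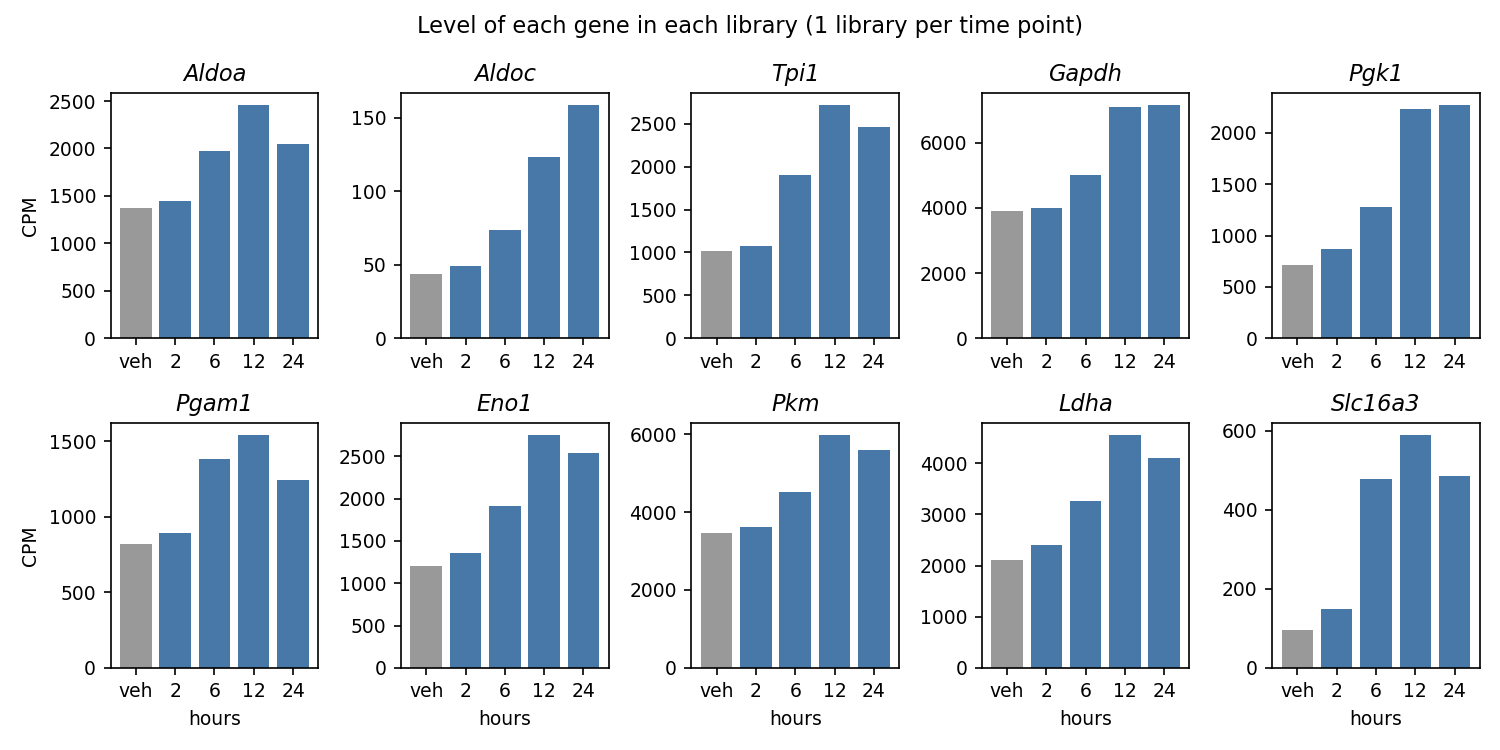
Level of each of the 10 genes in CPM in the vehicle library and after 2, 6, 12 and 24 h of Fanchinoline, 1 value per library and no replicates. The lowest value of each gene is its vehicle library. Gapdh ran from 3890.3 to 7147 CPM and Aldoc from 43.4 to 158 CPM.

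Calls needed a 2-fold difference (a log2 ratio of 1 or more in size) with an interval that left out equality, and were made over the 8846 genes that reached 10 CPM in some library. All 10 genes passed that minimum in vehicle already. None of the 10 genes was called at 2 h, where 0.904% of all compared genes were called higher. At 6 h 1 of 10 was called higher (Slc16a3) beside 1.57% of all compared genes. At 12 h 6 of 10 were called higher (Aldoc, Tpi1, Pgk1, Eno1, Ldha and Slc16a3) beside 2.33%. At 24 h 5 of 10 were called higher, with Ldha just under the size rule, beside 2.86%. None was called lower at any time, beside 0.43%, 0.373%, 0.746% and 1.23% of all compared genes at 2, 6, 12 and 24 h. The median log2 ratio of the 10 genes was 0.15, 0.71, 1.15 and 1.02 at 2, 6, 12 and 24 h, beside 0.03, 0.04, 0.02 and -0.00 over all compared genes. The intervals of all 10 lay above 0 at each time, where 41.3%, 43.7%, 42.2% and 41.6% of all compared genes did the same. At this depth small ratios clear counting error easily, so the count of intervals above 0 carries less than the size rule.

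Long transcripts took a smaller part of the vehicle library than of any treated one. Between the quintiles of longest and shortest transcripts, median log2 ratios differed by 0.57 to 0.75 against vehicle and by 0.04 to 0.06 between consecutive treated libraries. Ratios to vehicle are therefore also given after a smooth fit on transcript length and GC content was subtracted, here called length-adjusted. So adjusted, 0, 3, 8 and 6 of the 10 genes were called higher at 2, 6, 12 and 24 h, beside 0.464%, 0.747%, 1.43% and 1.89% of all compared genes. Their adjusted medians were 0.25, 0.82, 1.35 and 1.26. For Slc16a3 the adjustment lowered the log2 ratios from 0.63, 2.31, 2.62 and 2.34 to 0.36, 2.06, 2.44 and 2.20 in the same order. Slc16a3 stayed the largest of the 10 at 6, 12 and 24 h, and at 2 h Pgk1 had the largest adjusted value, 0.50. What part this imbalance has in single ratios was not tested beyond the adjustment. Values without the vehicle library are given below for the steps between treated libraries and for the trend. Total counts ran from 33568526 to 42854511 per library. All 12 cDC1 markers checked were at 10 CPM or more in at least 1 library, with a summed level of 7596 to 10074 CPM. Of 7 macrophage markers, 4 reached 1 CPM in at least 1 library (summed level 431 to 624 CPM, with Mertk at 0), and the T, NK, neutrophil, fibroblast and erythroid lists each summed to under 3 CPM, with Cd3d, Cd3e and Cd3g at 0. The epithelial and endothelial lists summed to 7.39 to 10.5 and 5.20 to 9.91 CPM. In bulk libraries of this kind, fewer cells and less RNA per cell cannot be told apart.

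**Figure D2:**
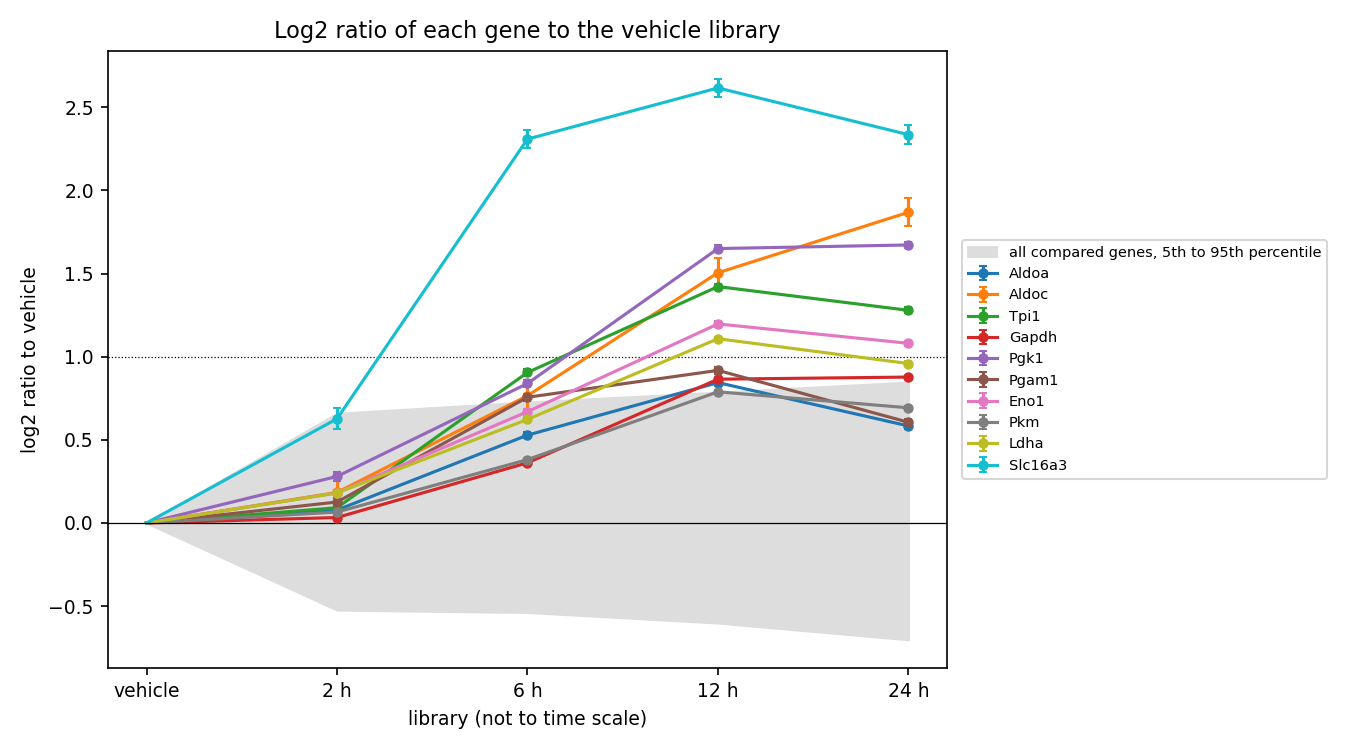
Log2 ratio of each gene to the vehicle library, with 95% exact intervals of counting error; the x axis lists the libraries in order and is not to time scale. The grey band spans the 5th to the 95th percentile of 8846 compared genes and the dotted line marks a log2 ratio of 1: Slc16a3 lay above the band from 6 h, and Aldoa, Pkm and Pgam1 were back inside it at 24 h.

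The first step of this stretch is the cleavage of fructose bisphosphate by aldolase, for which the cells held Aldoa, the widely expressed form on chromosome 7 (126795234-126800751, GRCm38, minus strand), and Aldoc, best known from brain, on chromosome 11 (78322968-78327781, plus strand). Aldoa stood at 1368 CPM in vehicle and at 1444, 1974, 2456 and 2050.5 after 2, 6, 12 and 24 h. It was highest at 12 h, and its log2 ratio to vehicle of 0.84 there was not called (length-adjusted 1.10, called). Aldoc stood at 43.4, 49.3, 73.8, 123 and 158 CPM in the same order. It was the only one of the 10 genes whose level was more than 1.02-fold higher at 24 h than at 12 h. Against vehicle it was 2.84-fold at 12 h (2.68 to 3.02) and 3.65-fold at 24 h (3.45 to 3.87), next to Slc16a3 at the later time. Aldoc took 3.07% of the counts of both aldolases in vehicle (exact 95% interval 2.92 to 3.23), 3.30%, 3.60% and 4.77% at 2, 6 and 12 h, and 7.17% at 24 h (7.01 to 7.34). Per length of the principal transcript the share went from 1.73% to 4.12%, so Aldoa remained by far the main aldolase transcript in every library.

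Tpi1, triose phosphate isomerase, interconverts the 2 trioses that aldolase releases, and it is transcribed from chromosome 6 (124810586-124814296, minus strand). Its level was 1014 CPM in vehicle and 1081, 1899, 2717 and 2461 after 2, 6, 12 and 24 h. The 2 h library was 1.07-fold above vehicle (1.05 to 1.08), and the 3 later libraries were 1.87 to 2.68-fold above vehicle. After Slc16a3, Tpi1 had the largest step from 2 h to 6 h of the 10 genes, a log2 ratio of 0.81.

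Gapdh, the NAD+-dependent glyceraldehyde phosphate dehydrogenase and a common reference gene for normalising expression, lies on chromosome 6 as Tpi1 does (125161715-125166467, minus strand). Gapdh stood at 3890.3 CPM in vehicle and at 3979.9, 4999.6, 7084 and 7147 after 2, 6, 12 and 24 h. Both late libraries were above the others, by 1.82-fold at 12 h (1.81 to 1.83) and 1.84-fold at 24 h (1.83 to 1.85) against vehicle, short of the size rule. At 2 h its log2 ratio was 0.03, and its sign turned to -0.05 when length-adjusted and to -0.02 when the counts of its near-identical copies were added to its own. The adjusted values of Gapdh rest on its longest annotated transcript of 3289 bases, while its principal transcript has 1420. An adjustment by the principal transcript was not made, so the adjusted sign and calls of Gapdh depend on that choice. Gapdh was the most abundant of the 10 transcripts per kilobase in all 5 libraries, at 2740 CPM per kilobase of principal transcript in vehicle and 5033 at 24 h.

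Pgk1, phosphoglycerate kinase, makes the first ATP of the pathway and lies on the X chromosome (106187100-106203699, plus strand). It stood at 712 CPM in vehicle and at 865, 1274, 2236 and 2269.8 after 2, 6, 12 and 24 h. The 12 and 24 h libraries had nearly the same level, 3.14-fold (3.09 to 3.18) and 3.19-fold (3.14 to 3.23) above vehicle. Its step from 6 h to 12 h, a log2 ratio of 0.81, ranked 10 of 8846 compared genes, and Aldoc ranked 16 with 0.74.

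Pgam1, phosphoglycerate mutase, moves the phosphate to the neighbouring carbon and lies on chromosome 19 (41911923-41918660, plus strand). Its level was 816 CPM in vehicle and 891, 1378, 1542 and 1242 after 2, 6, 12 and 24 h. The 24 h library was lower than the 6 h library, which among the other genes was the case for none. Its step from 12 h to 24 h, a log2 ratio of -0.31 (-0.33 to -0.30), was the lowest of the 10.

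Eno1, the widely expressed enolase on chromosome 4 (150236721-150248879, plus strand), forms phosphoenolpyruvate. Eno1 stood at 1202 CPM in vehicle and at 1363, 1912, 2756 and 2542 after 2, 6, 12 and 24 h. It was called at 12 h with a log2 ratio of 1.20 (1.18 to 1.21) and at 24 h with 1.08 (1.06 to 1.10). Eno3, the enolase of muscle, had 26.8 CPM in vehicle, 27.9 at 2 h and lower values of 23.5, 19.0 and 17.0 CPM at 6, 12 and 24 h, and was not called (log2 ratio -0.65 at 24 h). Of 15 isozymes and paralogs of the 10 genes, Eno3 and Bpgm alone reached 10 CPM, and Bpgm, which makes bisphosphoglycerate, ran from 7.23 to 11.2 CPM and was not called.

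Pkm, pyruvate kinase, makes the second ATP and pyruvate, and lies on chromosome 9 (59656368-59679375, plus strand). Pkm stood at 3467 CPM in vehicle and at 3628, 4515, 5989 and 5603 after 2, 6, 12 and 24 h. It was the second most abundant of the 10 per kilobase in vehicle and had the smallest log2 ratio of the 10 at 12 h, 0.79 (0.78 to 0.80), which was not called. The table counts genes, so the M1 and M2 forms of Pkm were not told apart.

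Ldha, the A subunit of lactate dehydrogenase on chromosome 7 (46841475-46855627, plus strand), turns pyruvate to lactate. Ldha stood at 2114 CPM in vehicle and at 2395, 3255, 4556 and 4108 after 2, 6, 12 and 24 h. Its log2 ratio was 1.11 at 12 h (1.10 to 1.12) and 0.96 at 24 h (0.95 to 0.97), so it sat just above and then just below the size rule. With library totals in place of TMM scaling the 24 h value was 1.06, which passed. Per kilobase, Ldha ranked 3 of the 10 in vehicle, at 2 h and at 6 h, and 2 at 12 h and 24 h, when it passed Pkm (2580 against 2463 CPM per kilobase at 12 h). Ldhb, the subunit of the heart form, chosen here after its values were seen, had 4 counts at 2 h and 0 in the other libraries.

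Slc16a3, on chromosome 11 (120948480-120960868, plus strand), was far less abundant than the enzymes upstream of it, at 22.2 CPM per kilobase in vehicle and at 34.3, 110, 136 and 112 after 2, 6, 12 and 24 h. Only Aldoc was lower per kilobase, in every library. By log2 ratio to vehicle, Slc16a3 ranked 8 of 8846 compared genes at 12 h and 18 at 24 h. Of the related importer and exporter Slc16a1 (MCT1), also chosen after its values were seen, there were 36, 44, 86, 40 and 40 counts, so Slc16a3 made up 98.9% of the counts of both in vehicle and 99.8% at 24 h. Bsg, the chaperone that brings MCT4 to the cell surface, stood at 472, 465, 580.2, 727 and 755 CPM and was not called (log2 ratio 0.68 at 24 h, called when length-adjusted). Emb, the partner preferred by another family member, stood at 112 CPM in vehicle and between 79.8 and 107 CPM in the treated libraries, and was not called either.

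Comparing consecutive treated libraries leaves the vehicle library out. From 2 h to 6 h all 10 genes were higher, with log2 ratios from 0.32 (Pkm) to 1.68 (Slc16a3) and a median of 0.52 beside 0.01 over all compared genes; all 10 intervals lay above 0, as for 26.7% of them. Slc16a3 alone was called, where 0.226% of all compared genes were called higher and 0.102% lower, and it ranked 8 of 8846. From 6 h to 12 h all 10 were higher again, from 0.16 (Pgam1) to 0.81 (Pgk1) with a median of 0.49 beside -0.01 and all intervals above 0 (26.9% of all compared genes). None was called, where 0.0565% were called higher and 0.249% lower. From 12 h to 24 h 3 were higher (Aldoc 0.36, Pgk1 0.02 and Gapdh 0.01) and 7 lower, down to -0.31, with a median of -0.13 beside -0.03. None was called, where 0.0904% were called higher and 0.0565% lower. The intervals of those 7 genes lay below 0, as for 34.4% of all compared genes, and those of the 3 above it, as for 19.1%.

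**Figure D3:**
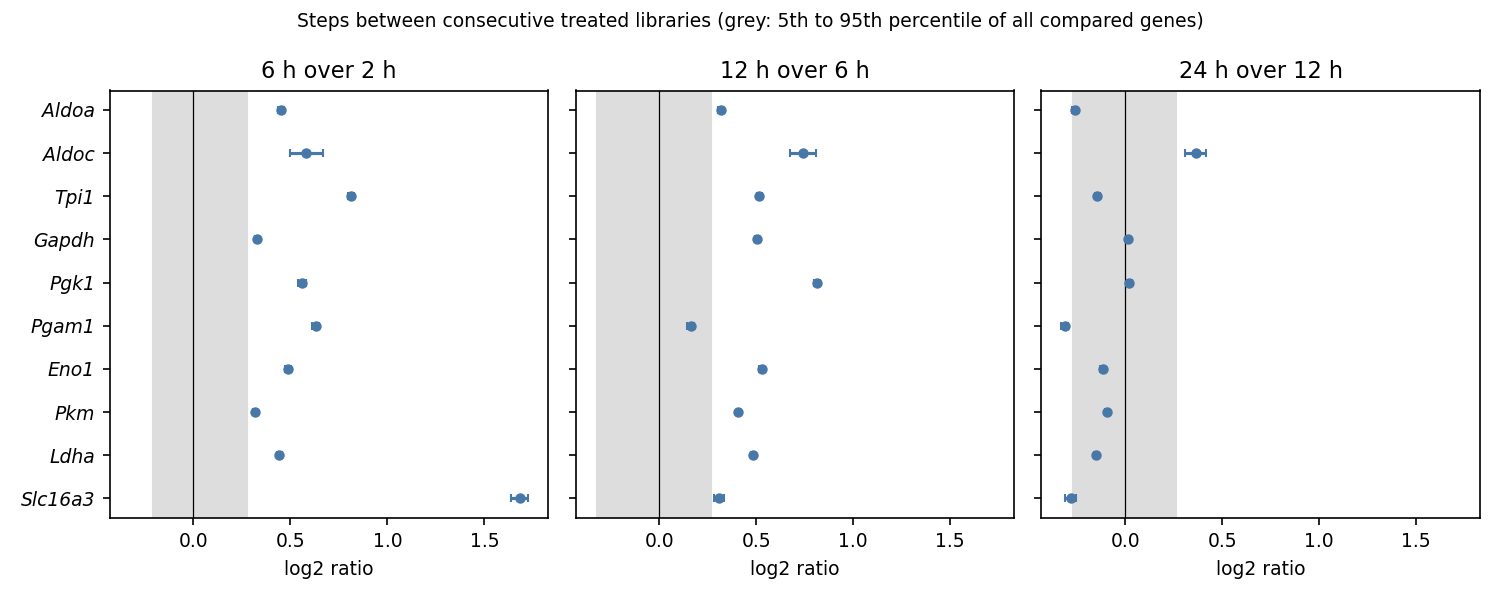
Log2 ratio between consecutive treated libraries for each of the 10 genes, with 95% exact intervals of counting error and a grey band from the 5th to the 95th percentile of all compared genes. Steps from 2 h to 6 h and from 6 h to 12 h are above 0 for all 10 genes, and steps from 12 h to 24 h lie between -0.31 and 0.36.

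A slope over all 5 libraries on log2(hours + 1) was fitted by edgeR's quasi-likelihood test with Benjamini-Hochberg adjustment over 13877 genes. Its error is the scatter of single libraries about a straight line (3 residual degrees of freedom), and not a spread between replicates. The test moderates this error for each gene with information from all genes, so the p-values do not rest on those 3 degrees of freedom alone. With a threshold of 0.05, 8 of the 10 genes rose, beside 5.16% of all genes tested. The steepest was Slc16a3, with 0.62 ± 0.11 (SE) per unit of log2(hours + 1) and an adjusted p of 0.0246 in edgeR's test. Aldoc followed with 0.43 ± 0.05 (adjusted p = 0.0177 in edgeR's test) and Pgk1 with 0.41 ± 0.05 (adjusted p = 0.0179 in edgeR's test). Tpi1, Eno1, Ldha, Gapdh and Pkm had slopes from 0.18 to 0.34 and passed as well. Pgam1 with 0.19 ± 0.05 (adjusted p = 0.0678 in edgeR's test) and Aldoa with 0.17 ± 0.05 (adjusted p = 0.0531) did not pass. Without the vehicle library the count was again 8 of 10, beside 8.01% of genes rising, with Aldoa and Pgam1 not past the threshold. The count was 9 without the 2 h library (9.31% of genes rising), 5 without the 6 h library (1.54%), 1 without the 24 h library (0.278%) and 0 without the 12 h library (0%). Without the 24 h library the slopes of 9 of the 10 genes were larger than with it (Slc16a3 0.77), while the calls over all genes also fell. Aldoc was the exception, with 0.40 against 0.43. All 10 slopes stayed above 0 when any 1 library was left out. With DESeq2's Wald test all 10 passed, beside 11.3% of genes rising. Without the 12 h library no gene of 13824 passed in either direction, and all 10 slopes were above 0 with an unadjusted p under 0.05, and 2815 genes had an unadjusted p under 0.05 in either direction.

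Other genes of glucose metabolism were called in part. Of 11 compared genes of glucose uptake and upper glycolysis, 0, 3, 4 and 3 were called higher at 2, 6, 12 and 24 h and none lower, with medians of 0.22, 0.32, 0.53 and 0.42. Slc2a1, the glucose transporter GLUT1, stood at 49.0, 88.5, 169, 202 and 178 CPM in time order, a log2 ratio of 2.04 at 12 h. Pfkl, the liver form of phosphofructokinase, stood at 151, 218, 472, 605 and 517 CPM, a log2 ratio of 2.00 at 12 h. Both were highest at 12 h and were called from 6 h on. Hk1 was called at 12 and 24 h (log2 ratio 1.29 at both). Hk2, the inducible hexokinase, was called at 6 h (1.09) and 12 h (1.06), neither of which held when length-adjusted (0.78 and 0.75).

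Genes that take pyruvate onward or branch off the pathway had few calls. Of 15 compared genes for the fates of pyruvate, 1 was called higher at each time and 1 lower at 24 h, with medians of 0.00, 0.10, -0.05 and -0.14. The gene called at 6, 12 and 24 h was Pdk1, a kinase that switches pyruvate dehydrogenase off, at 37.4, 47.7, 104 (6 h), 142 and 135 CPM. Gpt2, which exchanges pyruvate and alanine, was called higher at 2 h (log2 ratio 1.17) and had -0.75 at 24 h, and Pck2, the mitochondrial enzyme that forms phosphoenolpyruvate from oxaloacetate, was called lower at 24 h (-1.15). Of 18 compared genes of the branches, the phosphoglucomutase gene Pgm1 was called higher from 6 h on (log2 ratio 1.23, 1.63 and 1.51 at 6, 12 and 24 h). Pgls of the pentose phosphate pathway was called lower at 24 h (-1.05), a call that did not hold when length-adjusted (-0.92). Shmt2 and Psat1, which serve serine and glycine synthesis and one-carbon units, had -0.95 and -0.72 at 24 h and were not called.

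Of 9 compared transcription factors and sensors of the pathway, 1 was called higher at 6, 12 and 24 h: Egln1, the prolyl hydroxylase PHD2 that marks HIF-1 alpha for destruction. Egln1 stood at 81.6, 92.8, 184, 231 and 207 CPM, a log2 ratio of 1.34 at 24 h. Hif1an, the asparaginyl hydroxylase that limits HIF activity, had 0.97 at 24 h, Mlxip 0.48 and Myc -0.69, none of them called. Of 12 compared hypoxia genes outside glycolysis, 1, 5, 8 and 8 were called higher and none lower, with medians of 0.22, 0.91, 1.55 and 1.38. Examples are Bnip3, a mitophagy receptor, at 14.9, 14.7, 54.8, 78.6 and 71.6 CPM, and P4ha2, a collagen prolyl hydroxylase, at 1.19, 1.90, 7.42, 13.5 and 11.3 CPM. In both, as in Slc16a3, the 6, 12 and 24 h libraries lay well above vehicle and 2 h.

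**Figure D4:**
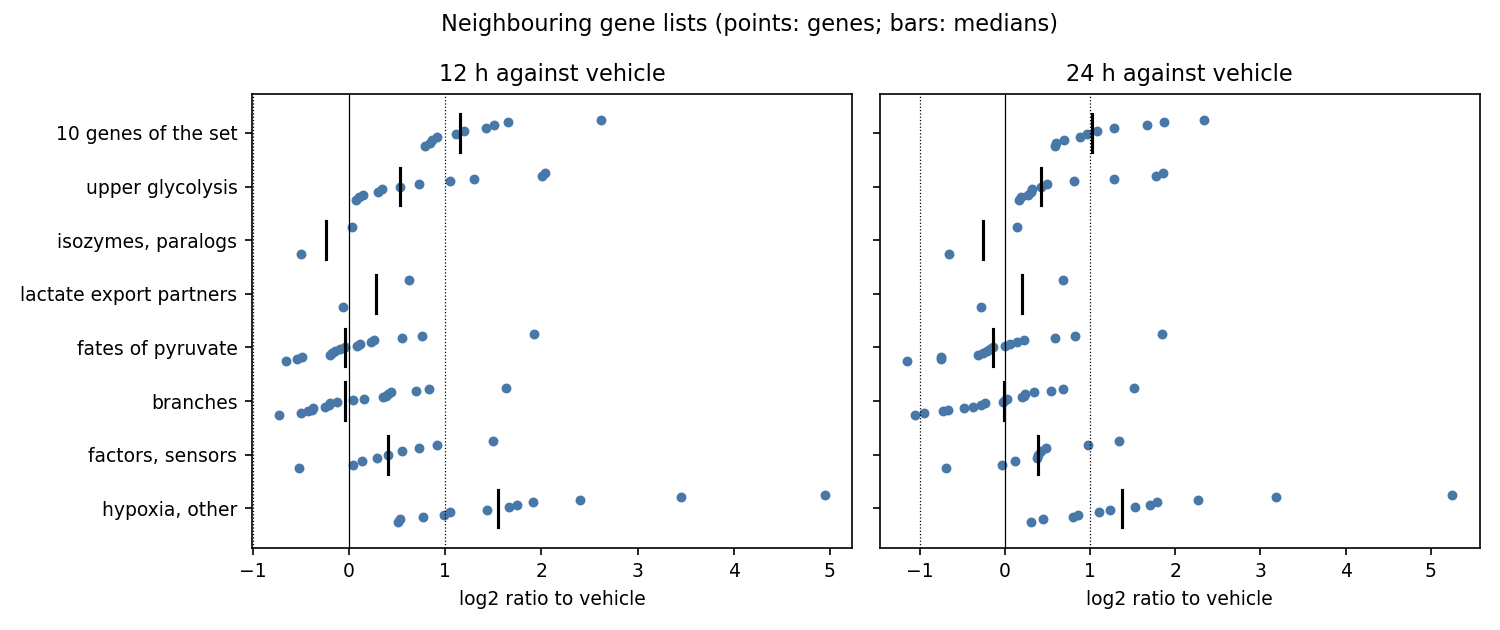
Log2 ratio to vehicle of every compared gene in the 10-gene set and in 7 neighbouring lists, 1 panel each for 12 h and 24 h, 1 point per gene, with bars at the median of each list. Dotted lines mark log2 ratios of 1 and -1; the medians of the 10 genes at 12 and 24 h (1.15 and 1.02) and of the hypoxia genes outside glycolysis (1.55 and 1.38) lie to the right of the upper line.

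Among 8546 other genes with at least 10 CPM in 1 library, an ordinary symbol and no near-identity to the 10, the 8 whose 4 log2 ratios to vehicle lay nearest to the median profile (0.15, 0.71, 1.15 and 1.02) were named. The measure was Euclidean distance over 4 ratios that share 1 vehicle library, so it describes 5 libraries only. Nearest was Ndrg1, a stress-inducible gene that is also in the hypoxia list, at a distance of 0.17 (log2 ratios 0.25, 0.76, 1.05 and 1.11). Next came Idi1 at 0.21, an enzyme of isoprenoid synthesis (-0.02, 0.65, 1.18 and 0.93), and Bhlhe40, a transcriptional repressor, at 0.21 (0.27, 0.76, 1.09 and 1.18). The others were Asph (0.21), Brwd3 (0.23), Rasa4 (0.24), Hmgcs1 of cholesterol synthesis (0.25) and Mindy2 (0.27). Within a distance of 0.53 there were 122 of the 8546 genes, so the 8 named are the nearest of many. The 10 genes set the median profile themselves, so their own distances to it, from 0.09 (Eno1) to 2.58 (Slc16a3), are not comparable with those of other genes.

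Most of the 10 genes have processed copies elsewhere in the genome, to which counting may have assigned part of their reads. Copies were sought as annotated transcripts at least 95% identical over at least 100 bases. Gapdh had 152 such genes, 49 of them at 1 CPM or more in some library, and their summed counts came to 39.2% of the Gapdh row in vehicle and to 34.1%, 36.0%, 35.4% and 36.7% after 2, 6, 12 and 24 h. The copy with the most counts was Gm5559 on chromosome 5 (95861714-95862715), 99.9% identical over 1002 bases, with 157 CPM in vehicle and 243 at 24 h. The share was highest in vehicle and varied little between treated libraries. The summed Gapdh copies had log2 ratios of -0.17, 0.24, 0.72 and 0.78 at 2, 6, 12 and 24 h, beside 0.03, 0.36, 0.86 and 0.88 for Gapdh itself.

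**Figure D5:**
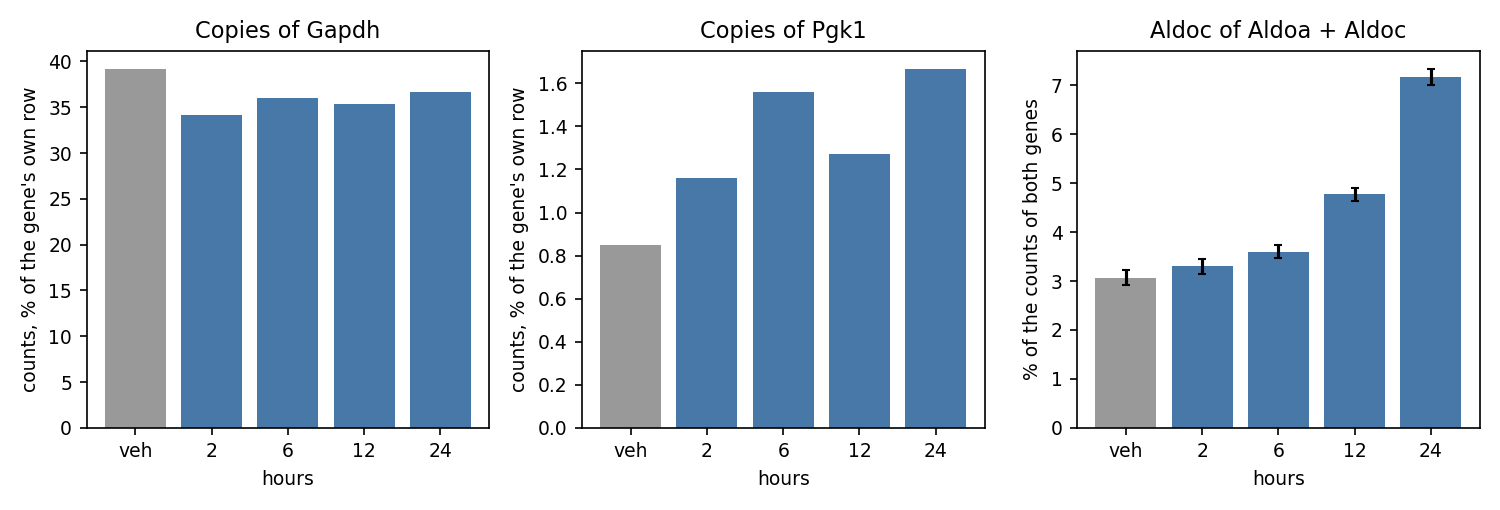
Counts of the near-identical copies of Gapdh and of Pgk1 as a percentage of the counts of the gene itself, and the Aldoc share of the counts of both aldolases with 95% exact intervals, by library. The Gapdh copies ran from 34.1% to 39.2%, the Pgk1 copies from 0.848% to 1.67%, and the Aldoc share from 3.07% to 7.17%.

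For Pgk1 the copies held far fewer counts, 0.848% of the gene's own in vehicle and 1.16%, 1.56%, 1.27% and 1.67% at 2, 6, 12 and 24 h, with log2 ratios from 0.73 to 2.65. The Pgam1 copies held 6.82% to 7.33% of the Pgam1 counts and the Eno1 copies 2.23% to 2.74%. The copies of Pkm, Ldha, Tpi1 and Aldoa held at most 1.44%, and no copy was found for Aldoc or Slc16a3. Most counts of the Pkm copies were those of Gm49759, which lies within the Pkm gene and is not a copy elsewhere in the genome. Adding the copies to each gene moved the log2 ratios to vehicle by -0.05 to 0.01 and left the number of the 10 genes called at each time as it was. Some exons overlap those of other genes, and the library kit does not mark strand. Aldoa shares 25 exon bases with Fam57b, Tpi1 34 with Spsb2 and Gapdh 68 with Iffo1, all on the opposite strand, and these neighbours had 0, 208 to 362 and 665 to 876 counts per library. Pkm shares 767 exon bases with Gm49759 on its own strand, which had 830 to 2147 counts beside 113665 or more for Pkm.

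Promoter sequence was read for all 10 genes because their levels moved together and several are textbook HIF-1 targets. Windows were the 250 bases before each start site that RefSeq lists (GRCm38.p6), 17 windows for the 10 genes. ACGTG, searched on both strands, was found before Aldoa, Pgk1, Pgam1, Pkm, Ldha and Slc16a3, that is 6 of 10 genes, and in 16.6% of 32851 windows and 18.5% of 27025 genes in all. GCGTG was found before Aldoc, Gapdh, Pgam1, Eno1 and Ldha, 5 of 10, and in 28.2% of all windows and 30.9% of genes. CACGTG, the E-box, which holds ACGTG on both strands, was found before Ldha alone and in 6.02% of all windows and 6.86% of genes. Tpi1 had none of the 3 in its window. The counts depend on the start sites used, and the use of all listed starts was chosen after the windows were seen. The 10 genes had more windows per gene than genes in all, and so more places for a match. Both cores contain CG, and the shares over all windows and genes were not matched for GC content or for expression in these cells. In the window nearest to the start of the principal GENCODE transcript, ACGTG was found for 4 of 10 genes (Aldoa, Pgk1, Pgam1 and Slc16a3). GCGTG was found there for 5 and CACGTG for 0. For Pkm and Ldha ACGTG lay only before other listed starts, 859 and 1327 bases from the principal one. Shown 5′ to 3′ on the gene's strand, with the motifs named above in capitals in either direction, are the window of the gene with the largest ratio (Slc16a3, chr11:120948817-120949066, plus strand), of the enzyme called at 12 h and 24 h with the largest 12 h ratio (Pgk1, chrX:106186850-106187099, plus strand), of the gene with the E-box (Ldha at its alternative start, chr7:46845554-46845803, plus strand) and of the gene with both cores in 1 window (Pgam1, chr19:41911621-41911870, plus strand).
Slc16a3: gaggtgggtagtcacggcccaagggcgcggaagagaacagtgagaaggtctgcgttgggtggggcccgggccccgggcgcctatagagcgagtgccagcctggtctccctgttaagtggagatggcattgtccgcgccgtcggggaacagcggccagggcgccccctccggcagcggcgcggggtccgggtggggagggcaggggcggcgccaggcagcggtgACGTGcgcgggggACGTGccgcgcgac
Pgk1: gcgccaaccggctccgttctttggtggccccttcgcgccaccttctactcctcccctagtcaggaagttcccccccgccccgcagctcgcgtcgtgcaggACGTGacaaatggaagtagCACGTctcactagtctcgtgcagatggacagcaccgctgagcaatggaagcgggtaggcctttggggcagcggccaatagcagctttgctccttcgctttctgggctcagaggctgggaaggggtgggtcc
Ldha: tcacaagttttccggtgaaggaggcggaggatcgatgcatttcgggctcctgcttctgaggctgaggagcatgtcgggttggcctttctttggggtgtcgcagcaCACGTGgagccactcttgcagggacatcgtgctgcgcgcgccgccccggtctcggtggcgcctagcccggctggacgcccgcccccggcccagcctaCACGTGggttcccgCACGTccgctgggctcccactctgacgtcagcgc
Pgam1: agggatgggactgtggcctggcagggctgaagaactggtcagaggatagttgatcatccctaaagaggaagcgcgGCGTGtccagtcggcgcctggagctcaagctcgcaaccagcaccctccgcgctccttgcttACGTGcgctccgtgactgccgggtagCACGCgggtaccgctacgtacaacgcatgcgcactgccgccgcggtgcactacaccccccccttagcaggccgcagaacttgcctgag
In the Slc16a3 window the 2 matches begin 27 and 14 bases before the listed start. In the Pgk1 window they begin 150 and 131 bases before it, and in the Pgam1 window ACGTG begins 114 and GCGTG 175 and 88 bases before it. The 2 E-boxes of Ldha begin 145 and 48 bases before the start, and a further ACGTG match begins at 34. Among the genes with a match to either core, log2 ratios at 12 h ran from 0.79 (Pkm) to 2.62 (Slc16a3), and Tpi1 with no match had 1.42. Whether matches go with the size of the ratios was not tested. A match is a run of letters and not a measured binding site, no protein binding was measured here, and a window without a match says nothing about sites farther away.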

How the data were processed

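Poly-A RNA of MutuDC cells was sequenced in 5 libraries, 1 per time point. The authors deposited raw read counts per gene, with no unused sample columns; Trim Galore, HISAT2 and GRCm38 are named per the submitters' processing notes, without versions. The counter, its strand setting and its handling of reads that match several genes are not stated in the sources used. Per the labels' protocols, RNA came from TRIzol extraction and an unstranded TruSeq kit was used.

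The members and gene lists were chosen with earlier results of these data known. Counts were scaled by TMM factors (0.977 to 1.05; edgeR 4.0.16, limma 3.58.1, R 4.3.3) and put on the log2 CPM scale after adding a prior count of 2. Genes with at least 10 CPM in 1 library were compared. With 1 library per time point, differences between libraries have no test: calls needed a log2 ratio of 1 or more in size and an exact (Clopper-Pearson) 95% interval of the 2 counts without equality. PCR reads without molecular identifiers are not independent molecules, so intervals cover counting error only. A count of 0 allows up to 3 counts, 0.0703 to 0.0915 CPM. The trend was fitted on log2(hours + 1) with edgeR's quasi-likelihood test after filterByExpr, with Benjamini-Hochberg adjustment. Each SE of a slope was derived from this test, as the size of the slope over the square root of its F statistic. On counts simulated from the same gene means and library sizes, the test called 64 of 100 genes with slopes of 0.25 and 91 of 100 with slopes of 0.5. It also called 12 of 13677 unchanged genes. The simulated counts were drawn independently around straight lines, with no shift of a whole library and no curve over time. They therefore do not show how often the test errs on the real libraries.

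Length adjustment subtracted natural cubic splines of log2 transcript length and GC content (4 degrees of freedom each), using the longest GENCODE M21 transcript; 99.9% of compared genes had one. CPM per kilobase used the principal transcript. Copies were found with BLAST 2.17.0. Promoter windows came from RefSeq; all start sites listed for a gene were used, a choice made after the windows were seen.

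Besides the 10 members, named genes were up to 4 per list with the largest log2 ratio in size at 24 h, the 8 nearest profiles, and copies at 1 CPM or more. Alternatives were DESeq2 size factors or library totals, a prior count of 0.5, no minimum level, a 1.5-fold size rule, length adjustment, copies summed, DESeq2's Wald test (1.42.0), no filter, a slope on hours, and each library left out.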

Additional observations from a re-analysis of the deposited data

How the results depend on the processing

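Log2 ratios to vehicle were above 0 for 10 of 10 members at all 4 times under DESeq2 size factors, library totals, a prior count of 0.5 and no minimum level; under length adjustment and with copies summed, Gapdh at 2 h was the exception. Library totals moved the median of all compared genes at 24 h to 0.10 from -0.00 and the share of called genes that were higher to 82.4% from 69.9%, and members called at 24 h to 6 from 5 (Ldha, 1.06). With a 1.5-fold size rule 1, 7, 10 and 9 members were called at 2, 6, 12 and 24 h, all of them higher. All compared genes called numbered 957 (637 higher), 1200 (861 higher), 1429 (938 higher) and 1864 (1079 higher), instead of 118, 172, 272 and 362. Under this rule 3 members were called higher from 2 h to 6 h and 2 from 6 h to 12 h. For these 2 steps all compared genes called numbered 105 (74 higher) and 114 (34 higher), instead of 29 and 27. Without a minimum level they numbered 1224, 1300, 1495 and 1753, and length-adjusted 61, 90, 174 and 246. Length adjustment gave 3 called members at 6 h. The trend count of 8 became 0 without the filter on low counts and 0 with a slope on hours (edgeR; unadjusted p under 0.05 for 10 and 7 members, and for 4843 and 2730 genes), and 10 with DESeq2's Wald test. Leaving out each library in turn gave 0 to 9 members; it was 0 without the 12 h, 1 without the 24 h and 5 without the 6 h library. Over all genes the trend called 1253 in edgeR, 2449 with DESeq2, 0 without the filter, 0 on hours, and 2158, 2064, 339, 0 and 41 without the vehicle, 2, 6, 12 and 24 h library. The cause of these shifts was not tested. No sign of a slope or of a called ratio reversed. No paired analysis was possible because each group has 1 library. At the depth of these abundant genes counting error was small beside the ratios called, and no spread between replicates could be measured.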
